A study of Sus scrofa with 21 samples.

Results

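The genes described here are those of the PI3K, AKT and mTOR signalling route, measured in whole blood of DD and LW pigs. They were taken from a list of 42 genes. A gene entered when a probe of the array carried its symbol in the gene name column of the scanner files, with upper and lower case treated alike. By that rule 34 of the 42 genes had a probe, 68 probes in all, out of 47053 distinct gene names or unnamed probes on the array. No probe carried the symbols PIK3CB, PIK3CD, PIK3R3, INPP5D, AKT1S1, RICTOR, RPS6KB2 or SESN2, so these 8 genes have no value by the rule. The only probe of PIK3R4 was well above background in no pig and was removed with the dimmest 25% of probes. This left 33 genes tested.

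DD pigs belong to an inbred minipig line, SLAdd, bred to be homozygous at the swine leukocyte antigen locus and long kept as a closed herd. LW pigs are Large White, a conventional breed, and served as controls. Blood was drawn at 60 days of age. The 10 DD pigs came from 5 litters and the 11 LW pigs from 6, and all ate the same standard diet without restriction. Both breeds differ in their whole genetic background, so a breed difference cannot be assigned to the antigen locus. Each RNA sample was labelled with Cy3 and hybridised to 1 array of a custom pig chip, and 3 chips each held pigs of both breeds.

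Phosphoinositide 3-kinase (PI3K) is recruited by receptors for insulin, growth factors, antigen or chemokines and makes a membrane lipid that brings AKT to PDK1, the kinase that activates it. AKT then restrains FOXO transcription factors, GSK3 kinases and the TSC complex, and release of the GTPase RHEB from the TSC complex switches on mTOR complex 1, which drives protein synthesis through S6 kinase. The route is held back by lipid phosphatases, by the energy sensor AMPK with its upstream kinase LKB1, and by the stress-induced proteins DDIT4 and the sestrins. In blood, the gamma form of the catalytic subunit and its PIK3R5 partner are known from leukocytes, where they act downstream of chemokine receptors.

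Values are log2 intensities of the authors' normalised matrix. Probes of a gene were averaged, and the difference between breeds (log2 FC, DD minus LW) was tested with limma, with chip as a fixed term and litter as a random block. P-values were adjusted over all 34394 features by the Benjamini-Hochberg method, and a gene with an adjusted p below 0.05 is said to be called. Levels per pig are given after removal of the chip effect. They are levels of a probe set, so levels of different genes are not compared. Blood is a mixture of cells, and fewer cells of a type cannot be told apart from less RNA per cell.

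Of the 33 genes tested, 8 were called lower and 1 was called higher in DD pigs. The genes lower in DD pigs were the PI3K subunits PIK3CG, PIK3R1, PIK3R2 and PIK3R5, the inhibitors DDIT4, SESN1 and PRKAA2, and the AKT substrate FOXO1, with log2 FC from -0.83 to -0.30. FOXO3, the other FOXO factor on the list, was the gene called higher, with a log2 FC of 0.62. Over all features, 9.41% were called lower and 11.4% were called higher in DD pigs. Among the genes of the route these shares were 24.2% and 3.03%. The median log2 FC was -0.19 over the 33 genes and -0.04 over all features, and 22 of the 33 estimates were negative. The share of all features called lower depended on the filter. Filtering probes by whether they were well above background gave 3819 of 26461 features called lower and 4358 higher. Medians were then -0.07 over all features and -0.23 over the genes of the route. With arrays scaled to their 75th percentile in place of quantile normalisation, the median over all features moved to 0.07, 4946 features were called higher and 2155 lower against 3935 and 3236 in the deposited values, and 6 genes of the route were called lower and 2 higher.

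**Figure D1:**
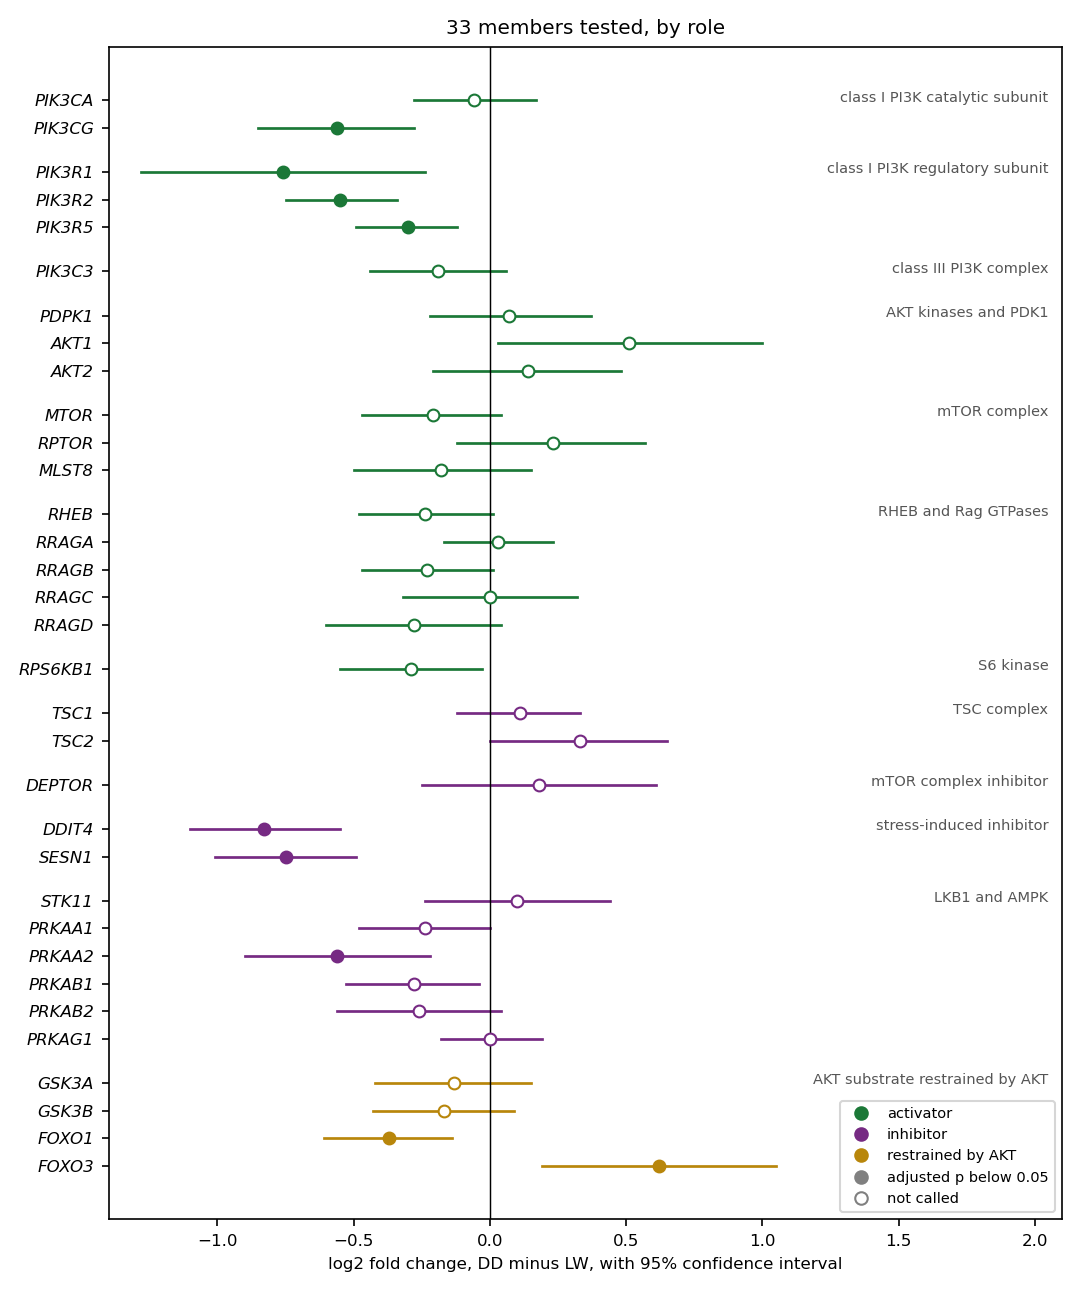
Log2 fold change of each of the 33 genes tested (x axis, DD minus LW), with its 95% confidence interval as a line, grouped by role. Filled circles mark the 9 genes called; the 8 lower ones lie between -0.83 and -0.30, and FOXO3 lies at 0.62.

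These counts depended on the arrays used. DD arrays were dimmer than LW arrays, with a brightness (log2 of the 75th percentile of background-corrected signal) of 7.53 ± 0.542 (SD, n = 10) against 8.22 ± 0.376 (SD, n = 11). With brightness as a covariate, 1 gene of the route, PIK3R2, was called (adjusted p = 0.0396, limma), and 2.15% of all features were. Without chip 3, where the authors' methods note a technical bias, limma called none of the 33 genes and 1.49% of all features. At an unadjusted p below 0.05 there were 8 of the 33 genes. The share of all features at that unadjusted threshold is not given here, so this count has no background to be read against. The estimates of the 9 genes without chip 3 kept their signs, with PIK3R2 at -0.51, PIK3CG at -0.47, SESN1 at -0.63 and DDIT4 at -0.72. The part of array brightness in the breed differences was not tested beyond these fits. Without LW replicate 18 the count of genes called lower was 4, and without DD replicate 21 it was 5, while the share of all features called lower was 3.69% and 4.87%.

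Taken by direction of action, 18 genes that promote signalling were tested, of which 4 were called lower and none higher (1, AKT1, at an unadjusted p below 0.05), with a median log2 FC of -0.2. Of 11 inhibitors, 3 were called lower and none higher (1, TSC2, at an unadjusted p below 0.05), with a median of -0.24. Of the 4 substrates that AKT restrains, FOXO1 was called lower, FOXO3 was called higher, and GSK3A and GSK3B were not called. The regulatory subunits PIK3R1, PIK3R2 and PIK3R5 were counted with the genes that promote signalling and made up 3 of those 4 calls. The adaptors PIK3R1 and PIK3R2 also hold the catalytic subunits inactive, so their direction of action is not single. Genes counted as activators and genes counted as inhibitors both included some that were lower in DD pigs.

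The class I PI3K subunits held 4 of the 9 calls. PIK3CG, the gamma catalytic subunit (Sscrofa11.1 chromosome 9, 106698200 to 106748217), ranged from 8.44 to 9.60 with a median of 9.03 in DD pigs. In LW pigs it ranged from 9.06 to 9.88 with a median of 9.67. All 10 DD pigs lay below the LW median, and 5 of them lay below every LW pig. The log2 FC was -0.56 (SE 0.14, adjusted p = 0.0115, limma), a level 1.47-fold lower in DD pigs. Taken chip by chip, the estimates were -0.20, -0.66 and -0.85. PIK3CG was at -0.21 once brightness entered the fit (adjusted p = 0.66). Of its 2 probes, A_72_P146961 was called at -0.51 (SE 0.13, adjusted p = 0.0154, limma). The other, A_72_P470138, was at -0.61 and was not called (SE 0.25, adjusted p = 0.083).

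PIK3R1 encodes the main adaptor subunit that holds the catalytic subunits inactive until a receptor is engaged (chromosome 16, 46434757 to 46523626). Its levels ran from 6.35 to 8.33 (median 7.58) in DD pigs and from 7.19 to 9.26 (median 7.99) in LW pigs. The breeds overlapped, with 4 DD pigs below every LW pig. The log2 FC was -0.76 (SE 0.25, adjusted p = 0.0367, limma). The call was lost when any of 11 pigs was left out (DD replicates 1, 10, 19, 21 and 23 and LW replicates 5, 9, 12, 14, 18 and 22), with estimates from -0.89 to -0.64, and without the litter block (adjusted p = 0.0593). With array brightness as a covariate the estimate was -0.05 (adjusted p = 0.995), and without chip 3 it was -0.45 (adjusted p = 0.57). PIK3R1 also had the widest spread within breed of the 33 genes, an SD of 0.64 against a median of 0.31 over the genes of the route. This value rests on 1 probe, designed to a sequence with a non-pig accession. A further probe, assigned to PIK3R1 by its description, ran from 6.88 to 7.19 in DD pigs and from 6.59 to 7.40 in LW pigs and gave a log2 FC of -0.08 (SE 0.10, adjusted p = 0.60). With both probes averaged, PIK3R1 was at -0.42 and was not called (adjusted p = 0.0592).

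PIK3R2 encodes the beta form of the same adaptor (chromosome 2, 59637363 to 59652075). It ranged from 6.38 to 7.10 (median 6.72) in DD pigs and from 7.03 to 7.46 (median 7.27) in LW pigs. Of the 10 DD pigs, 9 lay below every LW pig. The log2 FC was -0.55 (SE 0.10, adjusted p = 0.00107), and the differences within chips 1, 2 and 3 were -0.52, -0.50 and -0.63. Its 2 probes gave different values. A_72_P017486 ran from 8.11 to 8.85 in DD pigs and from 9.17 to 9.85 in LW pigs, so the breeds did not overlap, and it gave -0.99 (SE 0.10, adjusted p = 2.78e-06). The other probe, O6456, gave -0.10 (SE 0.15, adjusted p = 0.647) and was well above background in only 3 DD and 7 LW pigs. Of all probes tested, 0.5% had every DD pig below every LW pig.

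PIK3R5 encodes the regulatory partner of PIK3CG (chromosome 12, 53979206 to 54046927). Its averaged level ran from 8.78 to 9.28 (median 9.05) in DD pigs and from 9.18 to 9.63 (median 9.37) in LW pigs, with 6 DD pigs below every LW pig. The breed difference was -0.30 (SE 0.09, adjusted p = 0.0255), and it lost its call without DD replicate 21 (adjusted p = 0.0559) or LW replicate 18 (adjusted p = 0.0765). The averaged value was -0.19 with brightness as a covariate (adjusted p = 0.516). Its probes went different ways. A_72_P723223 and A_72_P232232 share an overlap of 51 bases with 2 mismatches, and the first 30 bases of that overlap hold both. They are shown because the array measured these nearly identical stretches with opposite estimates. Capitals mark the bases that differ, A3G and A15C, counted from 1 at the 5′ end of the window with the base of A_72_P723223 first.
A_72_P723223: tcAtcctaggacccAaaatggaatttaacg
A_72_P232232: tcGtcctaggacccCaaatggaatttaacg

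A_72_P723223 ran from 11.6 to 12.48 (median 12.15) in DD pigs and from 11.55 to 12.39 (median 11.98) in LW pigs. Its log2 FC was 0.23 (SE 0.11, adjusted p = 0.151). A_72_P232232 ran from 9.82 to 10.37 (median 10.02) in DD pigs and from 10.37 to 11.14 (median 10.73) in LW pigs, so the highest DD pig met the lowest LW pig. Its log2 FC was -0.72 (SE 0.11, adjusted p = 0.000321). A further probe, named only by its RefSeq accession for PIK3R5, shares 58 bases with A_72_P232232 with 0 mismatches, and it gave -0.54 (SE 0.10, adjusted p = 0.00196). The third probe by symbol, A_72_P442360, gave -0.41 (SE 0.10, adjusted p = 0.0136). It was well above background in 3 DD pigs and in all 11 LW pigs. With array brightness as a covariate, A_72_P723223 was called higher (log2 FC 0.47, adjusted p = 0.0442) and A_72_P232232 lower (-0.71, adjusted p = 0.0106). PIK3R5 as 1 gene was therefore -0.30 by the mean of its probes and 0.23 by its brightest probe.

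PIK3CA, the alpha catalytic subunit, and PIK3C3, the class III kinase that acts in endosomes and autophagy, were not called. Their log2 FC were -0.06 and -0.19. PIK3C3 is named here after its values were seen, because its 5 probes spread from -0.45 to 0.24 and 1 of them, A_72_P461112, was called lower (adjusted p = 0.0244). A further probe, named only by its RefSeq accession for PIK3C3, was also called lower, at -0.45 (SE 0.14, adjusted p = 0.0304, limma). It shares 57 bases with A_72_P035386, which was at -0.41 and was not called (adjusted p = 0.0573).

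The core kinases were not called. AKT1, the AKT form with the broadest expression, had a log2 FC of 0.51 (SE 0.23, adjusted p = 0.116). DD pigs ranged from 10.16 to 12.17 (median 11.13) and LW pigs from 9.54 to 11.72 (median 10.67). On chip 3 the deposited values were 11.56, 12.27 and 11.75 in DD replicates 19, 21 and 23. In LW replicates 18, 22 and 24 they were 10.05, 9.63 and 10.61. This chip is shown because AKT1 differed most there, and it holds only 3 pigs of each breed. By chip, AKT1 was at -0.18 ± 0.33 (SE), then 0.15 ± 0.31, then 1.77 ± 0.35. The test of whether the breed difference varied between chips gave p = 0.00138 unadjusted and an adjusted p of 0.329 (limma), and without chip 3 the log2 FC of AKT1 was -0.03. With array brightness as a covariate its sign turned, to -0.18 (adjusted p = 0.922). By that test 0 of the 33 genes and 0% of all features were called, while 4 genes of the route and 14.8% of all features had an unadjusted p below 0.05. AKT2 and PDPK1, the gene for PDK1, were at 0.14 and 0.07.

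MTOR, the kinase of both mTOR complexes, had a log2 FC of -0.21 (SE 0.12, 95% confidence interval -0.47 to 0.04, adjusted p = 0.22), and 0.11 with array brightness as a covariate (adjusted p = 0.883). DD pigs and LW pigs overlapped for both of its probes, with medians of 9.13 and 9.29 for the one and 9.01 and 9.23 for the other. Of 2 further probes assigned to MTOR by description, 1 was at -0.05 and the other was called higher, at 0.39 (adjusted p = 0.0269). RPTOR, the scaffold that brings substrates to mTOR complex 1, was at 0.23 (SE 0.17, adjusted p = 0.33), from a probe read well over background in 1 DD pig and no LW pig. With arrays scaled to their 75th percentile RPTOR was called higher, at 1.03 (adjusted p = 0.0129). A probe assigned by description to RICTOR, the corresponding scaffold of the other mTOR complex, gave 0.03 (SE 0.12, adjusted p = 0.878). The GTPases RHEB, RRAGA, RRAGB, RRAGC and RRAGD, which turn mTOR complex 1 on in response to growth factors and amino acids, ranged from -0.28 to 0.03, and RPS6KB1, an S6 kinase, was at -0.29. None of these 6 was called.

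DDIT4 and SESN1, both inhibitors, had the lowest adjusted p-values of the 33 genes. DDIT4, also called REDD1, is induced by hypoxia, glucocorticoids and energy stress and acts through the TSC complex (chromosome 14, 75117708 to 75119907). It ranged from 7.00 to 7.90 (median 7.42) in DD pigs and from 7.65 to 8.64 (median 8.30) in LW pigs. Only 1 LW pig lay within the DD range. This gave a log2 FC of -0.83 (SE 0.13, adjusted p = 0.000435), a level 1.77-fold lower in DD pigs. All 5 of its probes had negative estimates, from -1 to -0.46, and 4 were called. Of these, A_72_P577733 and A_72_P230427 have the same 60 bases and gave -0.95 and -0.97, so they are repeats of 1 measurement. Near the floor were A_72_P538933, well above background in 1 DD and 9 LW pigs, and O13960, in 1 DD and 4 LW pigs.

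SESN1, a sestrin that restrains mTOR complex 1 through amino acid sensing and AMPK (chromosome 1, 75056731 to 75170374), was the only gene of the 33 whose breeds did not overlap. It ranged from 7.11 to 8.13 (median 7.88) in DD pigs and from 8.15 to 8.80 (median 8.51) in LW pigs. Over all features, 0.488% had every DD pig below every LW pig. The log2 FC was -0.75 (SE 0.13, adjusted p = 0.000533). It rests on 1 probe, designed to a sequence with a non-pig accession, whose match to the pig transcript was not checked. Within chips 1, 2 and 3 the difference was -0.62, -0.71 and -0.95. With brightness as a covariate the estimates of DDIT4 and SESN1 were both -0.57, with adjusted p-values of 0.0666 and 0.062.

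**Figure D2:**
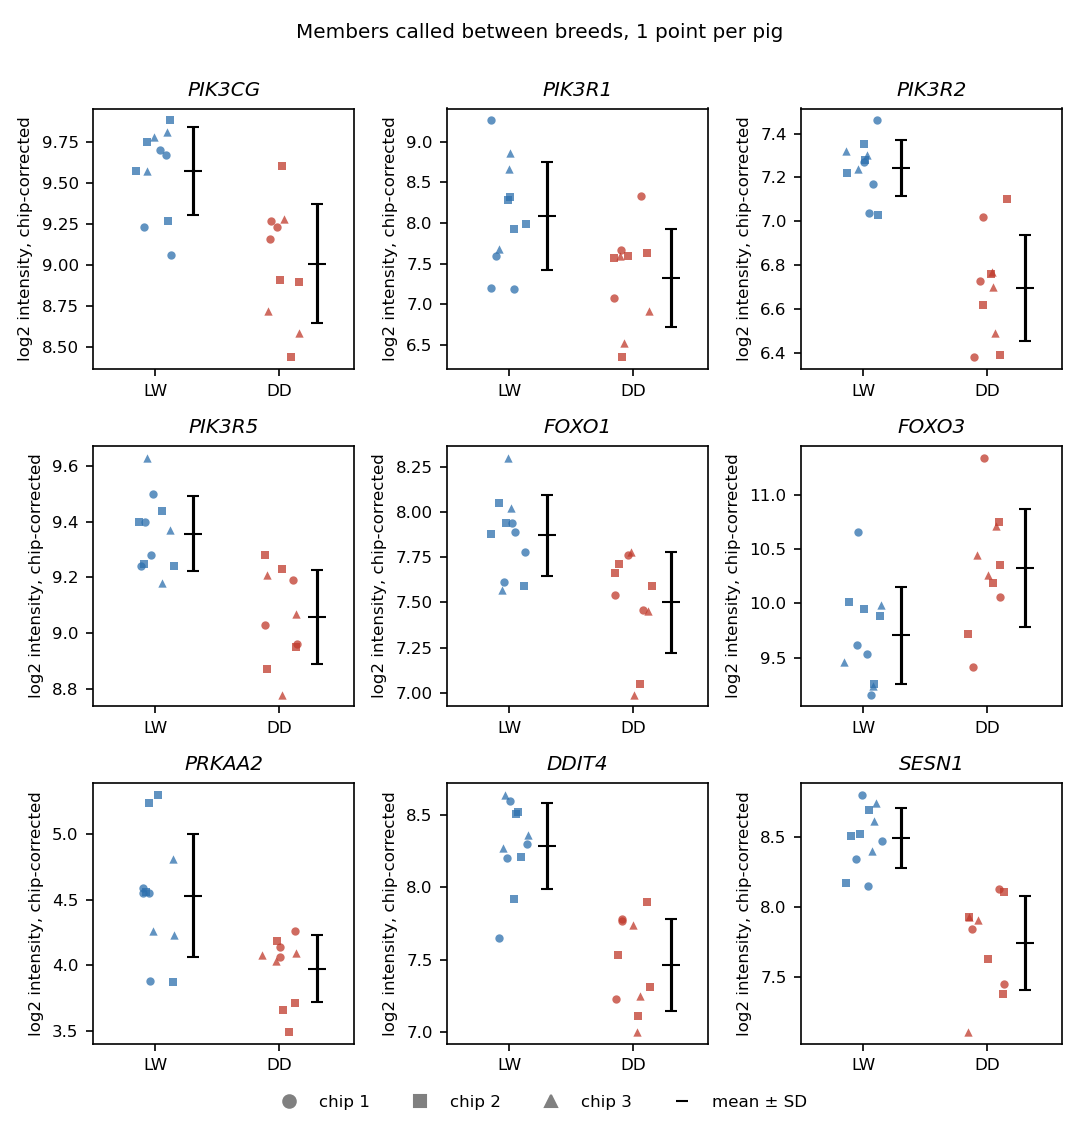
Chip-corrected log2 intensity (y axis) of the 9 genes called, 1 point per pig, with the chip as the marker shape and the mean and SD of each breed as bars. SESN1 shows no overlap between breeds, and FOXO3 is the panel where DD pigs are the higher group.

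PRKAA2 encodes a catalytic subunit of AMPK that is best known from muscle (chromosome 6, 155683392 to 155754283). Its probe was well above background in no DD pig and in 5 of 11 LW pigs. DD pigs ranged from 3.49 to 4.26 (median 4.07) and LW pigs from 3.87 to 5.30 (median 4.55), near the floor of the array. The fitted log2 FC was -0.56 (SE 0.16, adjusted p = 0.0247). With the lowest signals counted as above background taken for DD pigs, the mean of all 11 LW pigs was 1.28-fold higher. Only 5 of these LW pigs were above background, so this value is not a lower limit. Without LW replicate 18 the adjusted p was 0.0732, and the fit with brightness gave -0.44 (adjusted p = 0.448). PRKAA1, PRKAB1, PRKAB2, PRKAG1 and STK11, the gene for LKB1, were not called, with log2 FC from -0.28 to 0.10. One probe of PRKAB1, A_72_P237592, named after its values were seen, was called lower at -0.28 (adjusted p = 0.0305, limma). Its other probes, at -0.26 and -0.31, were not called.

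TSC2, the GTPase-activating subunit of the TSC complex, had a log2 FC of 0.33 (SE 0.16, adjusted p = 0.132), with a signal well above background in 1 pig of each breed. TSC1 and PRKAG1 are named after their values were seen, because their probes went both ways. For TSC1 the probe O14405 was called higher, at 0.55 (adjusted p = 0.0188), while the other probes kept were at -0.21 and -0.02. For PRKAG1 the probe A_72_P233587 was called lower, at -0.27 (adjusted p = 0.0489), and O5825 was at 0.37 (adjusted p = 0.0929).

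FOXO1 and FOXO3 are transcription factors that AKT keeps out of the nucleus, and they drive genes of cell cycle arrest, gluconeogenesis and, in lymphocytes, homing and quiescence. FOXO1 (chromosome 11, 15317222 to 15410059) ranged from 6.99 to 7.78 (median 7.57) in DD pigs and from 7.57 to 8.30 (median 7.89) in LW pigs. Of the DD pigs, 5 lay below every LW pig. FOXO1 had a log2 FC of -0.37 (SE 0.11, adjusted p = 0.029), and the call was lost without DD replicate 16, 21 or 23 or LW replicate 18 or 22, with adjusted p-values up to 0.0915. It was also lost with arrays scaled to their 75th percentile (-0.28, adjusted p = 0.0751) and with array brightness as a covariate (-0.11, adjusted p = 0.895). FOXO1 has 5 probes, and 1 of them was called. The sequences of 3 of them, read from the scanner files, are given because these probes of 1 gene gave a called difference, an uncalled one and no signal above background, in that order.
FOXO1 A_72_P441344: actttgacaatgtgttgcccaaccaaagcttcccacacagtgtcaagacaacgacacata
FOXO1 A_72_P280234: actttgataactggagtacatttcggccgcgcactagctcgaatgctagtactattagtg
FOXO1 O2940: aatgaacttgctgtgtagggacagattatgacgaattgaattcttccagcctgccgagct

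A_72_P441344 ran from 9.39 to 10.39 (median 10.1) in DD pigs and from 10.61 to 11.76 (median 11.03) in LW pigs. The breeds did not overlap, and the log2 FC was -1.13 (SE 0.15, adjusted p = 3.81e-05). Chips 1, 2 and 3 gave mean differences of -0.75, -1.15 and -1.52. A_72_P280234 gave -0.47 (SE 0.23, adjusted p = 0.142), A_72_P107426 gave -0.16 (SE 0.14, adjusted p = 0.438) and A_72_P452642 gave -0.03 (SE 0.12, adjusted p = 0.861). All of these were well above background in every pig. O2940 was well above background in no pig. As printed, O2940 has 0 reading frames without a stop codon, and its reverse complement has 2. A_72_P441344 and A_72_P280234 each have 2 on the strand shown and 2 on the reverse complement.

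**Figure D3:**
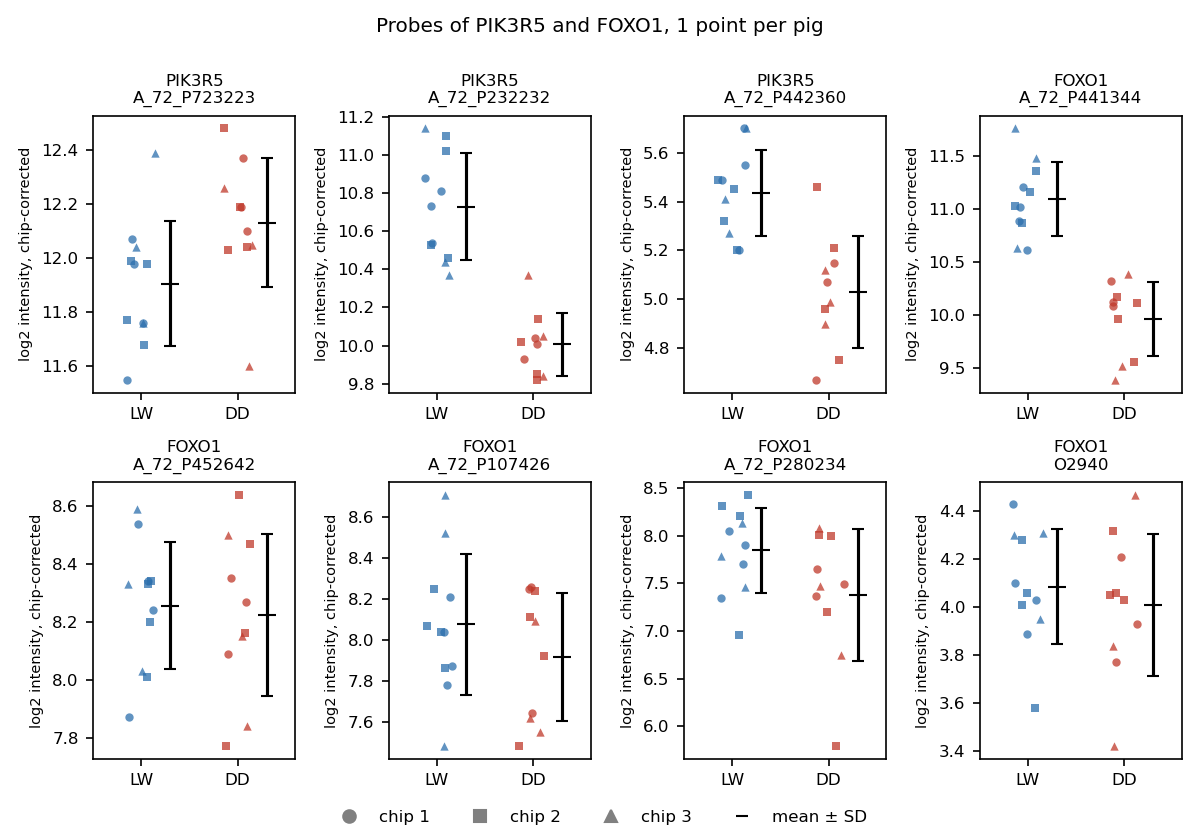
Chip-corrected log2 intensity (y axis) of the 3 PIK3R5 probes and the 5 FOXO1 probes, 1 point per pig, with the mean and SD of each breed as bars. A_72_P441344 separates the breeds completely, A_72_P232232 nearly so, and the ranges of A_72_P452642 overlap almost throughout.

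FOXO3 (chromosome 1, 74626673 to 74760323) was higher in DD pigs, which ranged from 9.41 to 11.34 (median 10.3) against 9.16 to 10.66 (median 9.62) in LW pigs. The breeds overlapped, with 3 DD pigs above every LW pig and 9 of 10 above the LW median. FOXO3 thus had a log2 FC of 0.62 (SE 0.21, adjusted p = 0.0405). Its 3 probes were all positive, at 0.41, 0.93 and 0.51, and O5860, the probe at 0.93, designed to a non-pig accession, was called (adjusted p = 0.0305). Within chips, O5860 was at -0.02, 1.16 and 1.68 on chips 1, 2 and 3, while A_72_P375183 was at 0.83, 0.27 and 0.15. The call was lost when any of 14 single pigs was left out (DD replicates 8, 10, 16, 19, 21 and 23 and LW replicates 2, 4, 5, 12, 14, 18, 22 and 24), with estimates from 0.48 to 0.76 over all 21 pigs left out in turn. With array brightness as a covariate FOXO3 was at 0.17 (adjusted p = 0.935) and O5860 at -0.06 (adjusted p = 0.989).

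**Figure D4:**
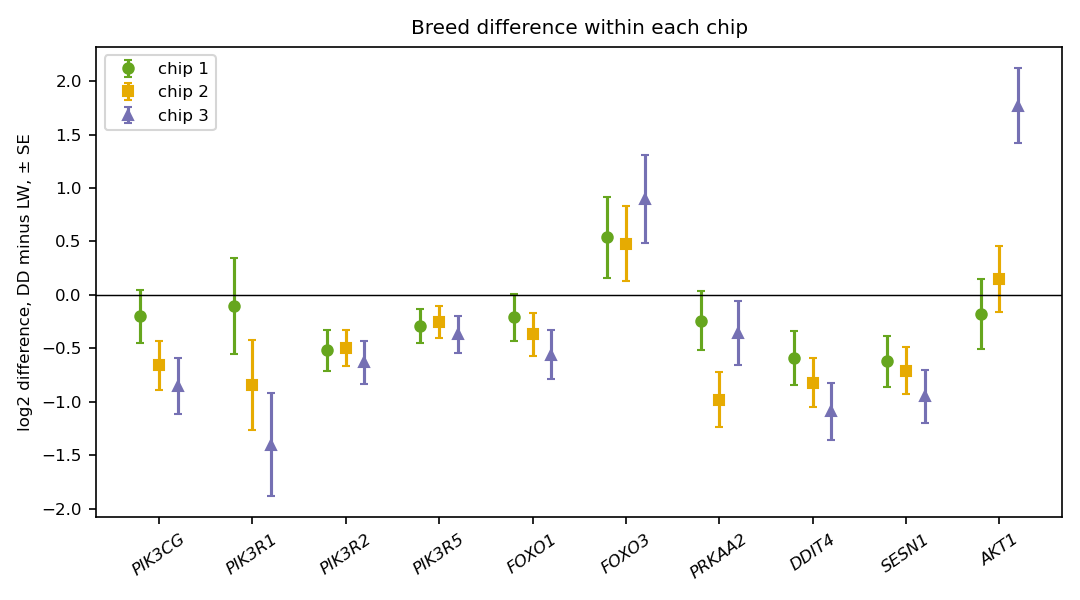
Breed difference within each of the 3 chips (y axis, log2, DD minus LW, ± SE) for the 9 genes called and for AKT1. The 9 genes called kept 1 sign on all chips, whereas AKT1 was at -0.18, 0.15 and 1.77.

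Probe by probe, 15 of the 66 probes kept were called lower and 2 were called higher in DD pigs, 22.7% and 3.03%. Over all probes tested, 10.7% were called lower and 11% higher. Of the 17 genes with more than 1 probe kept, 5 had estimates of both signs. Without chip 3, a fit added after the data were seen, 3 of these probes were called, FOXO1 A_72_P441344 (-0.98, adjusted p = 0.00251), PIK3R2 A_72_P017486 (-0.85, adjusted p = 0.00245) and PIK3R5 A_72_P232232 (-0.76, adjusted p = 0.00562), against 1.42% of all probes. With array brightness as a covariate the same 3 were called, together with A_72_P723223 of PIK3R5 and the 2 identical probes of DDIT4, against 2.31% of all probes.

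**Figure D5:**
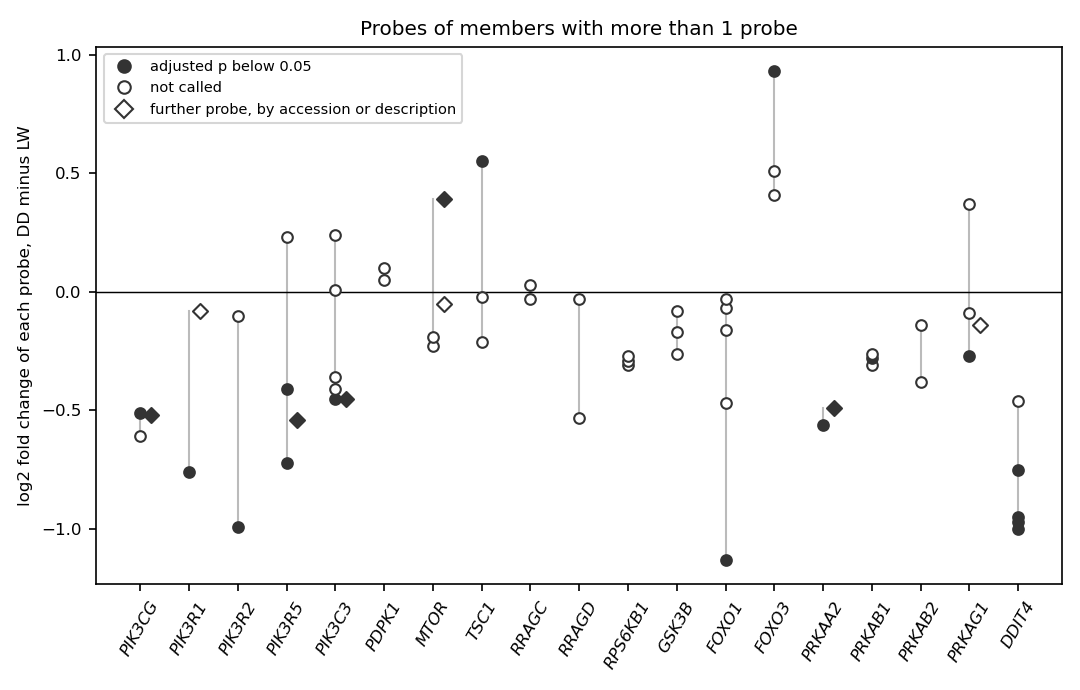
Log2 fold change of every kept probe (y axis, DD minus LW) for the genes measured by more than 1 probe, further probes included as diamonds. Filled symbols are called; FOXO1, PIK3R2 and PIK3R5 each combine a called probe with one near or above 0, whereas the 5 probes of DDIT4 are all negative.

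The sign of the difference was negative on all 3 chips for 16 of the 33 genes and positive on all 3 for 2, against 24.3% and 19.5% of all features. All 9 genes called kept 1 sign on the 3 chips, as did 87.4% of all features called, which were chosen by a test over the same chips. Over the 33 genes the median size of the difference was 0.17, 0.25 and 0.44 for chips 1, 2 and 3, and the size was larger on chip 3 than on chip 1 for 29 of the 33 genes and for 77.8% of all features.

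Of 60 other genes of the route, 42 were tested, and 4 were called higher and 4 lower, 9.52% each, close to the 11.4% and 9.41% of all features. STRADB, a pseudokinase partner of LKB1, was higher at 0.97 (SE 0.25, adjusted p = 0.0142), and the translation repressor EIF4EBP2 (0.38), the lysosomal regulator FLCN (0.51) and the sestrin SESN3 (0.41) were also called higher. RPS6, the ribosomal protein phosphorylated by S6 kinase, was lower at -0.51 (SE 0.13, adjusted p = 0.0133). CAMKK2, a calcium-dependent kinase of AMPK, EEF2K, the kinase that slows translation elongation, and SGK1, a relative of AKT, were lower at -0.43, -0.49 and -0.61. EIF4EBP1, the classical translation repressor under mTOR, was at 0.36 (SE 0.13, adjusted p = 0.0522). DDIT4 and SESN1 were thus lower and SESN3 higher in the same pigs. Without chip 3 limma called none of the 42 (4 at an unadjusted p below 0.05), and with array brightness as a covariate none (2 at an unadjusted p below 0.05). The shares of all features at the unadjusted threshold in these fits are not given here.

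Markers of blood cell types moved in the same comparison, in which 9.41% of all features were called lower and 11.4% higher. Of 11 T cell markers tested, 4 were called lower (CD3D, CD3G, CD247 and CD8A) and 0 higher, with none higher at an unadjusted p below 0.05 by limma, with a median log2 FC of -0.38. Their summed level ran from 12.42 to 13.56 in DD pigs and from 13.08 to 13.94 in LW pigs on the log2 scale. Of 8 erythroid markers, 4 were called higher (ALAS2, EPB42, KLF1 and CA1), with a median of 0.65. AHSP (-0.27) and SLC4A1 (-0.05) were negative. The summed level of the 8 ran from 18.15 to 19.03 in DD pigs and from 17.83 to 18.96 in LW pigs, with means of 18.59 and 18.57. It adds unlogged intensities, so it mostly reflects HBB (means 17.6 in DD and 17.3 in LW pigs) and AHSP (17.43 and 17.7). The 4 called markers, with DD means from 7.76 to 11.04, add little to it. Of 7 monocyte markers, CD163 was called lower (-0.72), 5 were positive and CSF1R was at 0.63 (adjusted p = 0.051). Of 5 platelet markers, PPBP was called lower (-0.94), and TBXA2R was at 0.36 (adjusted p = 0.0647). No marker of B cells, granulocytes or cytotoxic cells was called by limma among 6, 6 and 5, nor had any an unadjusted p below 0.05. Of all lists, MPO was the marker above background on no array. The part of cell composition in the differences of the PI3K subunits, FOXO1 and STRADB was not tested.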

How the data were processed

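Blood RNA of 10 DD and 11 LW pigs was measured on 1-colour Agilent arrays read with Agilent Feature Extraction 10.7.3.1. Per the paper's methods, the authors corrected intensities with normexp, took log2 and quantile-normalised, and left out outlying arrays. The deposited log2 intensity matrix was used, and the scanner intensities as deposited served for probe names, sequences, background flags, brightness and re-computed values. The 25% of probes with the lowest mean were removed. limma 3.58.1 in R 4.3.3 fitted breed and chip, with litter as a random block (consensus correlation -0.11), and p-values were Benjamini-Hochberg adjusted. This correlation is negative, and 7171 features were called with the block against 4894 without it. The block therefore did not make the calls more cautious. Tested on simulated data with 34394 features, the fit recovered 75% of 100 changes of 0.75 and 97% of 100 changes of 1.5 (log2). The simulated noise was independent between pigs, with a reduced chip effect, no correlation within litters and no brightness difference between breeds. Breed changes below 0.75 were not simulated. These rates therefore do not carry over to the genes called here. Coordinates are RefSeq gene coordinates on Sscrofa11.1, and probes were not placed on the genome. The result of 1 other gene and the sequence of 1 probe are not reported here. The genes and lists were chosen with earlier results of these data known. Genes named with full values were those with an adjusted p below 0.05, and of the others a few with known roles. The number of arrays limits the precision. P-values measure the spread between pigs, some of them siblings.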

Additional observations from a re-analysis of the deposited data

Results flagged for a closer look

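Among the 10 DD pigs, 1 pig stood apart from the others in 3 of the 33 genes, with a gap to the nearest pig that was large against the whole range (LW pigs were not examined because their group has more than 10). In each case it was DD replicate 16. For PDPK1 it was the highest, at 6.29 against 5.31 for the next pig, a gap of 0.645 of the range. For MLST8, a subunit of both mTOR complexes, it was the lowest, at 5.84 against 6.78, a gap of 0.556. For STK11 it was the lowest, at 5.3 against 6.19, a gap of 0.535. Chance alone gives such a gap in about 1 of 20 groups. None of the 3 genes was called, and the log2 FC of PDPK1 was -0.05 without this pig.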

How the results depend on the processing

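The count of genes called lower, 8 with the deposited values, was 6 to 9 with re-computed values, other scaling, other filters, the brightest probe, no litter block or without chip 1 or 2, and 3 without the chip term, 1 with array brightness as a covariate and 0 without chip 3. The single gene called higher became 2 with 75th percentile scaling or without chip 1, and 0 without a filter, without the litter block, without the chip term, with brightness, without chip 2 or without chip 3. Leaving out 1 pig gave 4 to 10 genes lower and 0 to 2 higher. Other genes of the route called higher, 4, became 2 with re-computed values or 75th percentile scaling, 1 without a filter or without the litter block, 7 with the brightest probe, and 0 without the chip term, with brightness or without chip 3. Those called lower, 4, became 1 with 75th percentile scaling and 0 without the chip term, with brightness or without chip 3. Leaving out 1 pig gave 1 to 5 higher and 0 to 7 lower, the 0 without LW replicate 18. Probes called, 17, became 7 without the chip term, 6 with brightness and 3 without chip 3. With the brightest probe PIK3R5 was at 0.23 (adjusted p = 0.149) and PRKAG1, at 0 by the mean of its probes, was at -0.27 (adjusted p = 0.0479). The cause of these shifts was not tested. PIK3CG, PIK3R2, DDIT4 and SESN1 remained called whichever single pig was left out. Case-sensitive names left PIK3R1 and SESN1 without a value and gave 6 genes lower, with no call of the other genes lost. The 9 further probes gave 7 lower. Both settings had 1 higher, and both were chosen after the data were seen. The breeds were compared unpaired, since the sibling pairs of the design lie within a breed and litter entered the fit as a random block.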
